A study of Mus musculus with 12 samples.

Results

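Smooth muscle cells were compared with perivascular progenitors in the aorta and surrounding fat of newborn mice. Both populations were sorted by flow cytometry from the vessel with its perivascular adipose tissue after digestion with collagenase and dispase, and poly(A) RNA was amplified and sequenced. The pups were 3 days old, wild type, of both sexes and of the CD-1 strain, and no treatment or modified allele is named for either group. The comparison takes 6 of the 12 libraries of the series, 3 labelled smooth muscle and 3 labelled progenitor, and all 36512 genes of the count table. The sources used here do not give the gates of the sort, the number of cells or any pooling of pups. Surface markers named below may therefore have set the sort, and p-values measure only the spread between these libraries, which may be technical.

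The vascular wall is built of smooth muscle cells that contract when calcium activates myosin on actin filaments, and that lay down elastin and basement membrane as the vessel grows. Their contractile genes are driven by the factor SRF, which binds a DNA element called the CArG box together with the coactivator myocardin. The outer layer of the aorta, the adventitia, and the fat around it hold progenitors that carry Ly6a (Sca-1), Cd34, Pdgfra and Pi16, secrete collagen, and can form fibroblasts and fat cells.

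Of 19641 genes with enough counts to be tested, 6754 (34.4%) were higher and 5525 (28.1%) lower in smooth muscle libraries by edgeR's quasi-likelihood test at a Benjamini-Hochberg adjusted p under 0.05, together 62.5%. A difference of more than 2-fold was called for 3993 genes (20.3%) higher and 963 (4.90%) lower, together 25.2%, by a test against that fold. For 68.2% of the genes tested, the 3 libraries of one group did not overlap the 3 of the other. With even background subtracted, 2546 genes in place of 3993 were more than 2-fold higher. Scaling by library size alone shifted the median over all genes by 0.43 on the log2 scale and the share of higher calls from 55.0% to 81.0%, and the groups below were read on the main scale, called TMM.

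The higher calls were concentrated among weakly counted genes and the lower calls among strongly counted ones. Among genes with a mean below 0 on the log2 scale of CPM (counts scaled to library size), 1550 of 2180 were higher and 42 lower, whereas at a mean of 8 or more 91 of 523 were higher and 347 lower. Library totals were 14778738 to 17123109 counts in progenitor and 11701825 to 13256506 in smooth muscle libraries, yet smooth muscle libraries had counts in more genes, 35115 to 35570 against 26607 to 29945. Olfactory and vomeronasal receptor genes, used in sensory neurons, summed to 44.9 to 96.9 CPM in progenitor and 711 to 1033 CPM in smooth muscle libraries by library size alone. Lars2 took 0.203% to 0.376% of counts against 1.19% to 2.15%, and the short RNA gene Gm23935 0.0844% to 0.113% against 0.520% to 0.916%. The part of these differences in the gene calls was not tested beyond the subtraction of background.

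**Figure D1:**
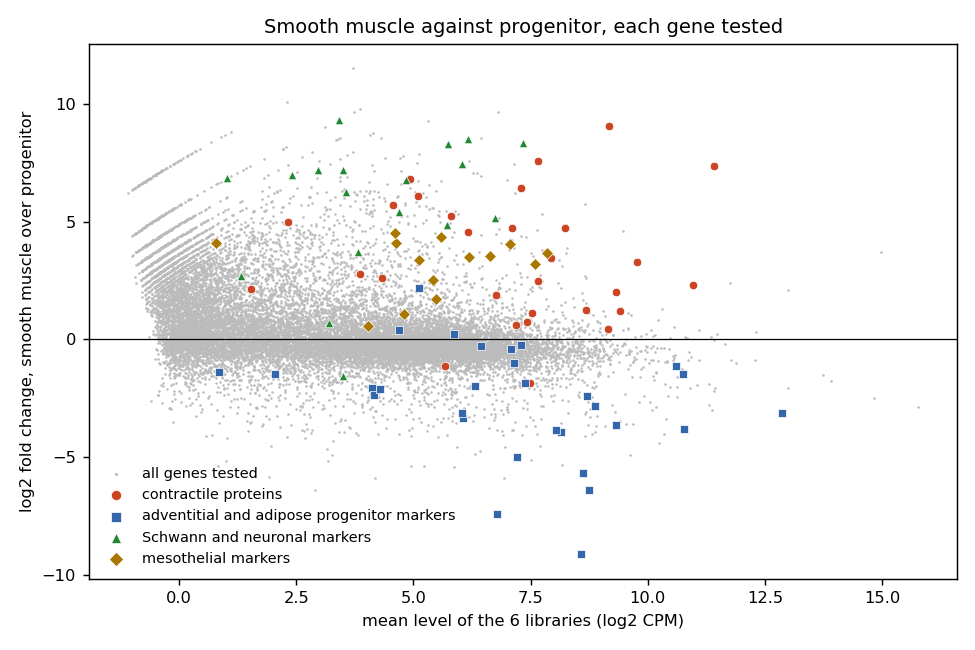
Log2 fold change of smooth muscle over progenitor libraries against the mean level of the 6 libraries in log2 CPM, 1 point per gene tested. Contractile proteins (red circles) and Schwann, neuronal and mesothelial markers (green triangles and brown diamonds) lie mostly above 0, progenitor markers (blue squares) mostly below it, and all other genes tested are grey.

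Contractile genes were higher in smooth muscle libraries for 28 of the 30 tested, 22 of them by more than 2-fold, with a median log2 fold change of 2.70 against 0.05 over all genes tested. Myh11, the myosin heavy chain of smooth muscle, was at 1.72, 2.13 and 2.55 CPM in progenitor replicates 1 to 3 and at 1318, 1246 and 909 CPM in smooth muscle replicates 1 to 3. Every smooth muscle library lay far above every progenitor library. The log2 fold change was 9.07 ± 0.21 (SE; adjusted p = 1.30e-11). Acta2, smooth muscle alpha-actin, was at 37.1, 38.1 and 24.7 CPM in progenitor and 5670.2, 5284 and 5412 CPM in smooth muscle libraries, and Cnn1, the actin-binding protein calponin, at 2.89, 3.65 and 4.27 and 316, 313 and 302 CPM. Neither gene overlapped between the groups, and their log2 fold changes were 7.36 ± 0.18 and 6.42 ± 0.15. Lmod1, leiomodin, which nucleates actin filaments, was at 0.971 ± 0.239 against 67.4 ± 7.7 CPM (mean ± SD, n = 3 per group here and below), and Myl9, the regulatory light chain of smooth muscle myosin, at 162 ± 12.7 against 1589 ± 81.6 CPM. The 2 members that were lower were Svil, supervillin, a link between actin and the cell membrane, at 279 ± 14.6 against 77.4 ± 6.22 CPM, and the smoothelin relative Smtnl2 at 70.0 ± 1.73 against 31.7 ± 5.29 CPM. Tagln, the gene of transgelin (SM22), was at only 0.312, 0.0688 and 0.482 CPM in progenitor and 7.56, 9.48 and 11.3 CPM in smooth muscle libraries. Its log2 fold change of 4.999 ± 0.38 passed the test, but all of its levels were low for a textbook smooth muscle marker. Exons of Tagln overlap those of Pcsk7 and of a predicted gene on the opposite strand, and the sources used here do not say how reads over such overlaps were counted.

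The progenitor libraries were not free of contractile transcripts, and the 6 actin genes show at what level. Per kilobase of exon, the scale on which genes can be compared with each other, Acta2 stood at 15.2 CPM per kb in progenitor and 2484 in smooth muscle libraries. Actg2, the actin of visceral smooth muscle, was at 1.36 and 257 CPM per kb. The cytoplasmic actins, which all cells use, were Actb at 1680.2 and 2088 and Actg1 at 404 and 283 CPM per kb. In progenitor libraries Actb was thus far above Acta2 per kb, whereas in smooth muscle libraries Acta2 was above Actb per kb. That last order rests on the exon lengths used, 2196 bases for Acta2 and 2679 for Actb. Before division by length, the smooth muscle means were 5455 CPM for Acta2 and 5593 CPM for Actb. Actb was called higher, with a log2 fold change of 0.31 ± 0.088, and Actg1 lower, with -0.51 ± 0.093, so the cytoplasmic pair went opposite ways. The call of Actg1 was lost with scaling by library size alone, and that of Actb without progenitor replicate 1 or 2 (log2 fold change 0.25 in both cases). The skeletal and cardiac actins Acta1 and Actc1 were at most at 8.29 CPM per kb, and both were called higher, by 0.97 ± 0.25 and 1.28 ± 0.38, the latter not without smooth muscle replicate 3 (0.98; adjusted p = 0.0605).

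Sequences just before the start of contractile genes were searched for the CArG box, because it is the element that SRF binds.
The box was taken as CC, 6 letters that are each A or T, and GG, on either strand, in windows from 250 bases before to 50 after the RefSeq start on GRCm38.p6.
An exact box was found for 6 of 26 contractile genes with a window (23.1%) and for 212 of 12987 genes tested (1.63%).
Allowing 1 other letter in the 6, the counts were 9 of 26 (34.6%) and 10.7% of all.
Among genes more than 2-fold higher in smooth muscle libraries the exact share was 2.22%, and among those more than 2-fold lower it was 2.16%.
None of 25 fibroblast matrix genes and none of 18 progenitor markers with a window had an exact box. With 1 other letter allowed, 6 of the 25 (24%) and 1 of the 18 (5.56%) had a match.
A match describes letters, not binding, and its absence says only that the letters are not in this window.
The stretches below, 5′ to 3′ on the gene's strand, show the matches in capitals for the 6 contractile genes that were more than 2-fold higher and had a match before their start.

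Acta2: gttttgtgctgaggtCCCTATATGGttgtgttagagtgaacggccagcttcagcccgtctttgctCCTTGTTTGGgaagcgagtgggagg
Myl9: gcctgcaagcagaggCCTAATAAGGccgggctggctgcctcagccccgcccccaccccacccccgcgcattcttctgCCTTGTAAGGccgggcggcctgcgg
Ldb3: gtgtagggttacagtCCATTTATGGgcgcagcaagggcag
Vcl: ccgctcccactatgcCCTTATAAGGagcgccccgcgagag
Pdlim3: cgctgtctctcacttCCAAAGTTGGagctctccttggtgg
Synm: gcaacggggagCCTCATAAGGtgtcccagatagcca

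Acta2 carries boxes that begin 84 and 34 bases before its RefSeq start, neither of them exact, and Myl9 a pair of which the first is exact. Ldb3 and Vcl have exact boxes, and Pdlim3 and Synm have boxes with 1 other letter. The stretches lie at chr19:34255383-34255472 (minus strand) for Acta2, chr2:156775288-156775389 (plus) for Myl9, chr14:34588692-34588731 (minus) for Ldb3, chr14:20929156-20929195 (plus) for Vcl, chr8:45885372-45885411 (plus) for Pdlim3 and chr7:67759957-67759992 (minus) for Synm, all upstream of the RefSeq start, although the Acta2 stretch lies within the longer gene span that GENCODE gives. All 6 genes were higher in smooth muscle libraries. Ldb3, an organiser of actin anchoring discs, was at 0.877 ± 0.256 against 46 ± 6.21 CPM, Pdlim3, an alpha-actinin partner, at 5.85 ± 0.891 against 137 ± 5.84 CPM, Vcl, vinculin of adhesion plaques, at 61.4 ± 13.9 against 339.6 ± 93.2 CPM, and the intermediate filament protein gene Synm at 3.67 ± 0.741 against 25.2 ± 2.58 CPM. Their log2 fold changes ranged from 2.47 ± 0.21 for Vcl, with an exact box, to 7.36 ± 0.18 for Acta2, with inexact ones.

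Sarcomere genes of striated muscle were higher for 14 of the 18 tested and lower for 2, with a median of 1.48, but at low levels. Without smooth muscle replicate 3, 9 were higher. Myh3, the embryonic myosin heavy chain, was at 0.147 ± 0.083 against 10.3 ± 3.02 CPM and Ttn, titin, at 7.5 ± 2.59 against 40.7 ± 4.39 CPM. These levels still hold the even background, which was taken to grow with exon length. Read from olfactory and vomeronasal receptor genes, it was 0.150 to 0.375 counts per kb in progenitor and 1.96 to 2.73 in smooth muscle libraries. Ttn was still called higher with that background subtracted, and the part of background in its level was not tested further. Cardiac Myh6 was at 1.23 ± 0.922 against 5.51 ± 1.54 CPM. Actn3, the alpha-actinin of fast skeletal fibres, went the other way, from 11.9 ± 1.1 to 2.08 ± 0.131 CPM. The whole list summed to 54 to 63.2 CPM in progenitor and 116 to 131 CPM in smooth muscle libraries.

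**Figure D2:**
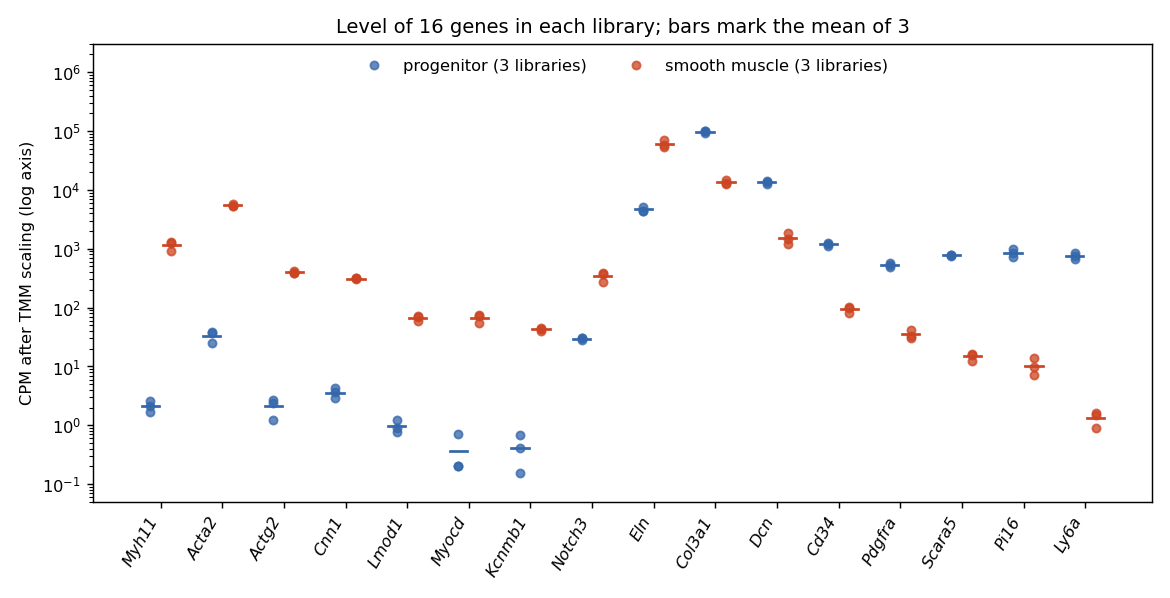
Level of 16 genes in each of the 6 libraries, in CPM after TMM scaling on a log axis, with progenitor libraries in blue, smooth muscle libraries in red and bars at the mean of 3. For each gene the points of one population lie together and do not overlap those of the other, with Myh11 at 909 to 1318 CPM in smooth muscle and 1.72 to 2.55 CPM in progenitor libraries and Ly6a at 0.915 to 1.61 against 660.1 to 852 CPM.

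Transcription regulators of smooth muscle were higher for 18 of the 24 tested and lower for 1, with a median of 1.12. Myocd, which encodes myocardin, was at 0.702, 0.206 and 0.207 CPM in progenitor and 75.1, 70.8 and 53.7 CPM in smooth muscle libraries. The progenitor values rest on a handful of reads, and the groups did not overlap. Mef2c, a factor upstream of Myocd in muscle lineages, was at 24.9 ± 1.51 against 151 ± 8.66 CPM, and the forkhead gene Foxs1, known from pericytes and vascular muscle, at 7.41 ± 0.217 against 35.2 ± 2.64 CPM. Srf itself was at 33.8 ± 7.48 against 38.4 ± 1.82 CPM and was not called (log2 fold change 0.18 ± 0.15; adjusted p = 0.317; -0.04 without progenitor replicate 1, and called higher by 0.61 with scaling by library size alone). Klf5, a factor of proliferating smooth muscle, was the 1 member called lower, at 34.5 ± 1.61 against 24 ± 9.65 CPM. That call was lost without progenitor replicate 2, smooth muscle replicate 1 or smooth muscle replicate 2 (adjusted p = 0.0586, 0.177 and 0.15). The call was also lost with a filter at 5 CPM, with even background subtracted and with scaling by library size alone (log2 fold change -0.34, -0.40 and -0.098).

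Ion channels and calcium stores were higher for 25 of the 32 tested and lower for 5, with a median of 2.05. Kcnmb1, the subunit that tunes the large-conductance potassium channel to calcium in smooth muscle, was at 0.156, 0.413 and 0.689 CPM in progenitor and 43.5, 44.6 and 39.3 CPM in smooth muscle libraries. Ryr2, a calcium release channel of the sarcoplasmic reticulum, was at 1.59 ± 0.314 against 50.1 ± 7.28 CPM. Its paralogs and partners split within the same family, since the inositol trisphosphate receptor Itpr1 was at 21.6 ± 1.41 against 63.1 ± 4.19 CPM and Itpr2 at 61.6 ± 9.17 against 20.6 ± 0.337 CPM. Itpr1 was thus the higher and Itpr2 the lower of the pair in smooth muscle libraries, by 1.55 ± 0.11 and -1.58 ± 0.13. Potassium channels split as well. Kcnk3, an acid-sensitive leak channel, was at 2.32 ± 0.549 against 90.0 ± 15.6 CPM, while Kcnj8, the pore of an ATP-sensitive channel, was at 126 ± 14.5 against 24.7 ± 5.36 CPM.

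Genes of the nitric oxide and cyclic nucleotide pathway, which relaxes the vessel, were higher for 15 of the 18 tested and lower for 3, with a median of 1.60. Soluble guanylate cyclase, the nitric oxide receptor, is made of an alpha and a beta subunit. Gucy1a1 was at 25.1, 25.5 and 29.8 CPM in progenitor and 349, 377 and 282 CPM in smooth muscle libraries, and Gucy1b1 at 8.58, 7.91 and 7.57 and 93, 93.9 and 68.6 CPM. Both subunits were therefore higher in every smooth muscle library, by 3.65 ± 0.14 and 3.41 ± 0.15 on the log2 scale. Adcy5, an adenylate cyclase, was at 3.59 ± 1.16 against 103 ± 14 CPM. Npr3, the clearance receptor of natriuretic peptides, was at 4.6 ± 0.368 against 30.2 ± 1.39 CPM. Pde4d, a phosphodiesterase that breaks down cyclic AMP, was lower, at 27.7 ± 0.842 against 18.7 ± 2.23 CPM, a call lost with scaling by library size alone (adjusted p = 0.362).

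Receptors for vasoactive signals were higher for 15 of the 29 tested (51.7%) and lower for 8 (27.6%), beside 34.4% and 28.1% of all genes tested. Their median was 1.13. That median was 0.52 with even background subtracted and 0.34 with a filter at 5 CPM. Summed, the list was at 1170 to 1619 CPM in progenitor and 719 to 872 CPM in smooth muscle libraries. Ednrb, an endothelin receptor, was at 0.937, 0.482 and 0.757 CPM in progenitor and 52, 47.3 and 49.3 CPM in smooth muscle libraries. Ednra, the main endothelin receptor of vascular muscle, did not show that difference, at 102 ± 10.9 against 117 ± 24 CPM (adjusted p = 0.248), although it was called higher by 0.31 without smooth muscle replicate 3. Ramp1, a partner of the receptor for calcitonin gene-related peptide, was at 1.1 ± 0.242 against 88.3 ± 5.59 CPM, P2rx1, an ATP-gated channel, at 1.38 ± 0.438 against 52.3 ± 5.48 CPM, and F2r, a thrombin receptor, at 47.7 ± 5.55 against 213 ± 33.1 CPM. Angiotensin receptors were on the progenitor side. Agtr2 was at 993, 818 and 1223 CPM in progenitor and 69.8, 93 and 75 CPM in smooth muscle libraries, a log2 fold change of -3.67 ± 0.16, and Agtr1a, which mediates angiotensin contraction, was at 42 ± 3.05 against 23.2 ± 1.94 CPM.

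Regulators of RhoA signalling and of myosin phosphatase, which set how sensitive contraction is to calcium, were higher for 14 of the 18 tested and lower for 3, with a median of 1.29. The regulators of G protein signalling Rgs5 and Rgs4 led the list, with Rgs5 at 21.4, 22.1 and 17.1 CPM in progenitor and 535, 644 and 583 CPM in smooth muscle libraries and Rgs4 at 14.1 ± 2.28 against 261 ± 50.9 CPM. Map3k20, a stress-activated kinase, was at 18.2 ± 1.67 against 150.4 ± 32.3 CPM. Rhoa itself was lower, at 359.9 ± 5.76 against 269.8 ± 11.1 CPM, as was the exchange factor Arhgef25, at 159 ± 9.1 against 101 ± 3.02 CPM. With scaling by library size alone, Rhoa and Arhgef25 had log2 fold changes of 0.015 and -0.23.

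Markers of pericytes, the mural cells of small vessels, were higher for 9 of the 14 tested and lower for 3, with a median of 2.57. Mcam, an adhesion receptor of mural cells, was at 10.5, 8.46 and 12.5 CPM in progenitor and 429, 405 and 418 CPM in smooth muscle libraries, and the proteoglycan gene Cspg4 (NG2) at 15.8 ± 0.343 against 320.2 ± 55 CPM. Kcnj8, described above, and Anpep, an aminopeptidase, were lower, Anpep at 79.2 ± 5.55 against 22.6 ± 3.07 CPM. Many of these genes are known from smooth muscle as well as from pericytes.

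Markers of other cell types differed between the libraries as well, and nerve genes held many of the largest differences. Schwann and neuronal markers were higher for 17 of the 18 tested and lower for 1, with a median of 6.82, and summed to 38 to 45.2 CPM in progenitor and 1056 to 1382 CPM in smooth muscle libraries. Stmn2, a microtubule regulator of neurons, was at 0.858, 0.895 and 1.17 CPM in progenitor and 259.9, 364 and 347 CPM in smooth muscle libraries. Dbh and Th, enzymes of noradrenaline synthesis, were at 0.379 ± 0.282 against 142 ± 21.7 and 0.334 ± 0.139 against 106 ± 19 CPM. Slc6a2, the noradrenaline transporter, had the largest log2 fold change among genes whose mean log2 CPM reached 5 and whose groups did not overlap, 9.67 ± 0.33, from 0.262 ± 0.14 to 221 ± 68.1 CPM. Other nerve genes stood among the 15 largest, such as the vesicle protein gene Syt1, Dbh, Stmn2, Th and the filament genes Ina and Prph. S100b, a calcium-binding protein of glia, was lower, at 16.8 ± 0.991 against 5.66 ± 0.77 CPM. None of the markers named here was at 0 in the smooth muscle libraries.

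Mesothelial markers, of the cell sheet that covers the organs of the chest and belly, were higher for 14 of the 14 tested, with a median of 3.52. Krt18 and Krt19, keratins of that sheet, were at 4.53 ± 1 against 92 ± 35.7 and 12.6 ± 1.13 against 72.7 ± 20.8 CPM, and the list summed to 141 to 291 against 1593 to 2129 CPM. Endothelial markers were higher for 15 of the 20 tested and lower for 3, with sums of 209 to 227 against 269 to 409 CPM. Esam, an adhesion protein of vessels, was at 2.92 ± 0.596 against 92.2 ± 5.01 CPM and Kdr, a VEGF receptor, at 6.09 ± 1.45 against 23.3 ± 3.97 CPM, while Tek, the angiopoietin receptor, was on the progenitor side at 118 ± 11.3 against 13.6 ± 4.51 CPM. Immune markers summed to 51.2 to 63.1 against 85.8 to 88.3 CPM. They split, 6 of 14 higher (42.9%) and 3 lower (21.4%), beside 34.4% and 28.1% of all genes tested. Kit was at 4.24 ± 1.31 against 30.9 ± 8.92 CPM and Lyz2, lysozyme, at 8.2 ± 3.99 against 2.89 ± 0.93 CPM. Red blood cell genes were lower for 4 of the 7 tested, with Hba-a1, a globin, at 98.7 ± 57.3 against 5.98 ± 5.87 CPM. In sorted bulk libraries, fewer cells of a type and less RNA per cell cannot be told apart. The part of admixed cells in the results above and below was not tested.

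**Figure D3:**
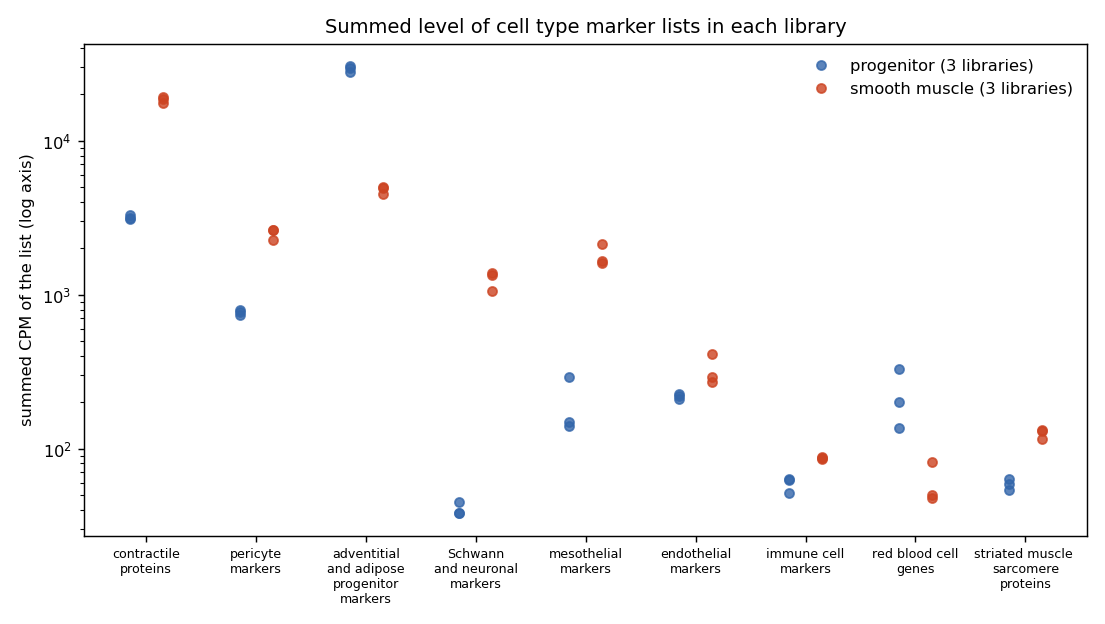
Summed CPM of 9 marker lists in each library on a log axis, progenitor libraries in blue and smooth muscle libraries in red. Contractile sums were 3121 to 3283 CPM against 17653 to 19241 CPM and neuronal sums 38.0 to 45.2 CPM against 1056 to 1382 CPM, while endothelial sums were 209 to 227 CPM against 269 to 409 CPM.

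Progenitor markers were lower in smooth muscle libraries for 26 of the 30 tested, 21 by more than 2-fold, and higher in 2, with a median of -2.22. Ly6a was at 758, 852 and 660.1 CPM in progenitor and 1.61, 0.915 and 1.51 CPM in smooth muscle libraries, the largest decrease among genes at that mean level, with a log2 fold change of -9.14 ± 0.19. Pi16, a secreted protease inhibitor of adventitial and adipose progenitors, was at 838, 971 and 737 and 7.19, 9.67 and 13.7 CPM. Neither gene came near an overlap, and Ly6c1, a neighbour of Ly6a in the same family, was at 218 ± 19.6 against 1.27 ± 0.238 CPM. Scara5, a ferritin receptor of fibroblasts, was at 777, 786 and 763 CPM in progenitor and 12.6, 15.6 and 16.6 CPM in smooth muscle libraries. Mfap5, a microfibril protein, was at 3275 ± 118 against 235 ± 25.6 CPM, Cd34 at 1186 ± 56.5 against 94.8 ± 11.2 CPM and Cd248, endosialin, at 826 ± 18.2 against 115 ± 11.9 CPM. Pdgfra, the receptor that marks mesenchymal progenitors, was at 566, 495 and 531 and 33.4, 40.9 and 30.8 CPM. Dpp4, often used with Pi16 to mark the same progenitors, stood apart from them. It was at 88.3, 93.9 and 101 CPM in progenitor and 73.6, 89 and 72.5 CPM in smooth muscle libraries and was not called, with a log2 fold change of -0.27 ± 0.11 (adjusted p = 0.0539). DESeq2 called it lower at an adjusted p of 0.0431, as did edgeR without progenitor replicate 1 (-0.37) or smooth muscle replicate 2 (-0.38), and it was at 0.16 with scaling by library size alone. Limch1, an activator of non-muscle myosin, was higher, at 12.6 ± 1.18 against 56.7 ± 3.48 CPM. The other member called higher, Efhd1, was no longer called without progenitor replicate 2 or 3 or smooth muscle replicate 1 or 3 (log2 fold change 0.40 ± 0.13).

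Fibroblast matrix genes followed the progenitor markers, with 29 of 35 lower and 4 higher in smooth muscle libraries and a median of -1.92. Summed, they took 254685 to 271359 CPM in progenitor and 52986 to 57011 CPM in smooth muscle libraries. Col3a1, fibrillar collagen III, had the most counts of any gene in progenitor libraries, at 100931, 90747 and 101783 CPM, and was at 12358, 14859 and 13209.7 CPM in smooth muscle libraries. The ranges did not meet, and the log2 fold change was -2.86 ± 0.11. Dcn, the collagen-binding proteoglycan decorin, was at 13374 ± 935 against 1513 ± 330.1 CPM, and Lum, lumican, at 2435 ± 201 against 234 ± 39.8 CPM. Serpinf1, an inhibitor of vessel growth, was at 2447 ± 178 against 153 ± 33 CPM, Gsn, gelsolin, which cuts actin filaments, at 4717 ± 211 against 582 ± 23.5 CPM, and Mmp2, a gelatinase, at 1826 ± 36.8 against 288 ± 11.2 CPM. Fmod, fibromodulin, and the collagen gene Col6a5 were the clearest of the 4 members on the smooth muscle side, at 73 ± 3.41 against 203 ± 19.7 and 77 ± 6.98 against 184 ± 7.11 CPM. Lum and Fmod are close relatives among the small leucine-rich proteoglycans and differed in direction.

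Elastic fibre genes were mostly lower, 15 of 24 with 7 higher and a median of -0.61, but the elastin gene itself went the other way. Eln was at 4435, 4367 and 5113 CPM in progenitor and 69021, 57439 and 53921 CPM in smooth muscle libraries, where it had the most counts of any gene. Its log2 fold change was 3.70 ± 0.13, and no library of one group reached the other. Proteins that form the microfibril scaffold around elastin were lower, with Mfap4 at 4475 ± 326 against 975 ± 48.3 CPM, Mfap2 at 1624 ± 91.6 against 303 ± 50.7 CPM and Emilin2, an elastin interface protein, at 385 ± 7.2 against 36.8 ± 4.92 CPM. The fibrillin genes Fbn1 and Fbn2 were lower as well, with log2 fold changes of -1.12 ± 0.11 and -1.43 ± 0.11. Fibulins, which bridge elastin and microfibrils, split, with Fbln5 at 1889.7 ± 48.2 against 2478 ± 221 CPM (called higher) and Fbln1 at 1211 ± 130.2 against 244 ± 52.1 CPM (called lower). Lysyl oxidases, which cross-link elastin and collagen, split too, since Loxl1 was called higher and Loxl4 lower (0.38 ± 0.10 and -2.02 ± 0.21 on the log2 scale). With all 12 libraries in 1 model, 3 in place of 7 members of the list were higher, and Fbln5 and Loxl1 had log2 fold changes of 0.38 and 0.37 there (adjusted p = 0.082 and 0.156).

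Basement membrane and integrin genes were higher for 28 of the 37 tested and lower for 6, with a median of 1.39. Laminins are trimers of alpha, beta and gamma chains, and the alpha chains parted. Lama5 was at 2.34, 2.27 and 2.2 CPM in progenitor and 286, 236 and 233 CPM in smooth muscle libraries, whereas Lama4 was at 410.1, 341 and 401 and 218, 217 and 168 CPM and Lama2 at 188, 150.3 and 157 and 83.3, 80.6 and 73.8 CPM. Lama5 was therefore low in the progenitor libraries, and Lama2 and Lama4 were higher there than in any smooth muscle library. Beta chains parted in the same way, with Lamb1 called lower and Lamb2 higher (-0.94 ± 0.10 and 0.57 ± 0.12). Nidogens, which tie laminin to collagen IV, did so too, with Nid1 at 3115 ± 233 against 735 ± 43.5 CPM and Nid2 at 359.8 ± 35 against 609 ± 68 CPM. The main collagen IV chains Col4a1 and Col4a2 were higher by 1.31 ± 0.11 and 1.05 ± 0.11.

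Integrins, the receptors for these proteins, belong to the same list. Itga8, a receptor chain for fibronectin and nephronectin, was at 16.8, 12.5 and 14.8 CPM in progenitor and 937, 929 and 515 CPM in smooth muscle libraries. Itga7 and Itga3, laminin receptor chains, were at 14.2 ± 2.69 against 298 ± 25.5 and 2.38 ± 0.169 against 91.3 ± 11.2 CPM. These 3 chains were higher in smooth muscle libraries, whereas Itga5, the fibronectin receptor chain, was lower, at 205 ± 35.7 against 87.9 ± 2.51 CPM. All 4 of these chains pair with the beta chain Itgb1 in known integrins.

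**Figure D4:**
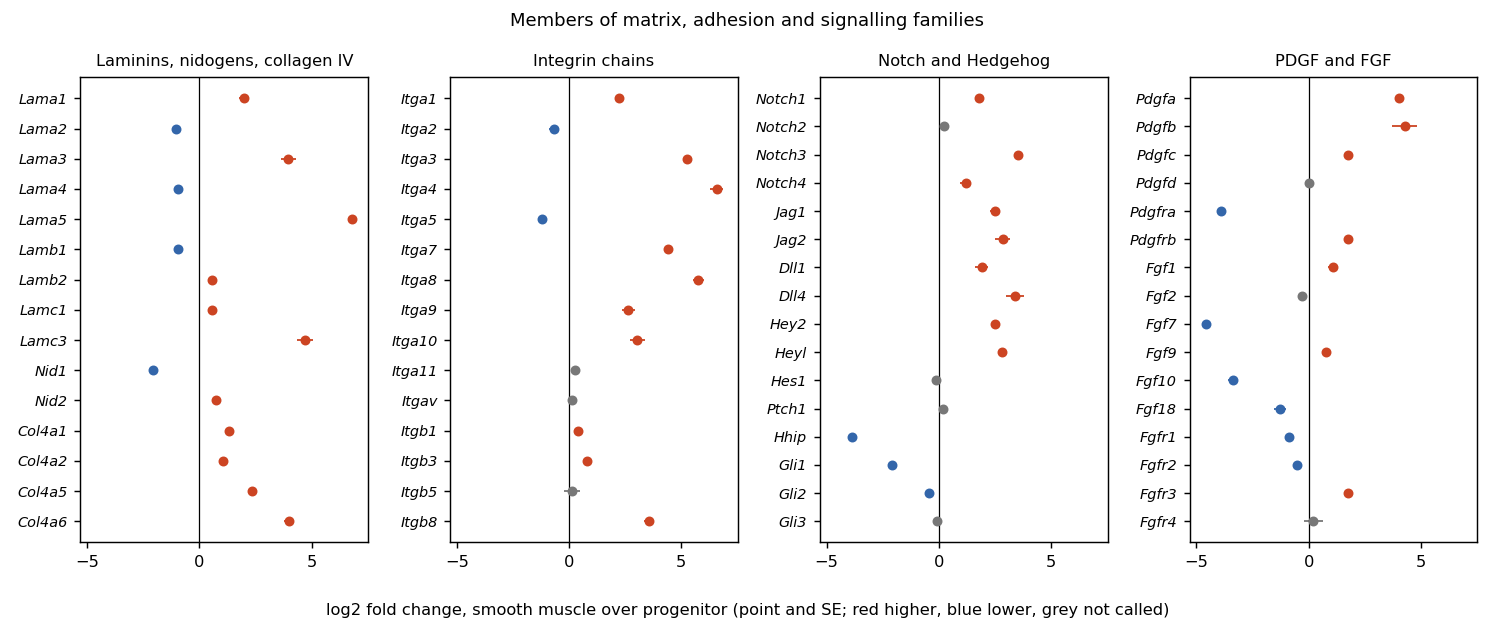
Log2 fold change of smooth muscle over progenitor libraries (point) with its SE (line) for members of 4 groups of families, red where called higher, blue where called lower and grey where not called. Relatives lie on both sides of 0 in each panel, among them Lama5 (6.79) with Lama2 (-1.06) and Pdgfrb (1.75) with Pdgfra (-3.92).

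Matricellular proteins, which tune how cells read the matrix, split evenly, 13 higher and 13 lower of 29, with a median of 0.27 (-0.20 with a filter at 5 CPM and -0.08 with even background subtracted). Each share was 44.8%, beside 34.4% and 28.1% of all genes tested. Acan, aggrecan, a large proteoglycan of cartilage and of the arterial wall, was at 0.078, 0.413 and 0.207 CPM in progenitor and 59.5, 49.5 and 53.6 CPM in smooth muscle libraries. The progenitor values were near the limit that a count of 0 allows, 0.206 to 0.234 CPM. Tnc, tenascin C, was at 49 ± 13.4 against 500.1 ± 89.7 CPM. In the CCN family Ccn5 was at 3.48 ± 1.44 against 106 ± 12.9 CPM and Ccn2 at 104 ± 7.64 against 467 ± 67.3 CPM, whereas Ccn1 was at 2387 ± 147 against 1011 ± 52.8 CPM. Ccn1 and Ccn2, both targets of mechanical signalling, thus went opposite ways. Thbs3, a thrombospondin, was lower, at 545 ± 19.1 against 88.4 ± 5.71 CPM, as was the collagen VIII gene Col8a2, at 93 ± 2.11 against 20.6 ± 0.857 CPM.

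Matrix proteases and their inhibitors were lower for 15 of the 28 tested and higher for 8. Those shares were 53.6% and 28.6%, beside 28.1% and 34.4% of all genes tested. The median was -0.45, and -0.018 with scaling by library size alone. Htra3, a serine protease, was at 1135 ± 41.8 against 135 ± 6.76 CPM, the plasminogen activator gene Plat at 716 ± 12.8 against 176 ± 14.1 CPM, and Reck, a membrane inhibitor of metalloproteases, at 269 ± 18.2 against 72.3 ± 8.71 CPM. Serpine2, which inhibits thrombin and plasminogen activators, was on the smooth muscle side, at 39.8, 42.1 and 35.2 CPM in progenitor and 625, 594 and 527 CPM in smooth muscle libraries. Adamts8, an aggrecanase relative, was at 3.4 ± 0.712 against 34.7 ± 2.52 CPM.

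Notch pathway genes, which pass signals between neighbouring cells, were higher for 14 of the 18 tested and lower for 1, with a median of 1.85. Notch3, the Notch receptor of mural cells, was at 30.2, 30.6 and 28.1 CPM in progenitor and 385, 372 and 271 CPM in smooth muscle libraries. Its ligand gene Jag1 was at 46.7, 69.1 and 78.8 and 414, 414 and 264 CPM. Receptor and ligand were thus higher together, by 3.53 ± 0.14 and 2.49 ± 0.20. The target genes Heyl and Hey2, repressors that Notch switches on, were at 38.2 ± 5.52 against 271 ± 44.4 and 6.55 ± 1.34 against 37.1 ± 2.46 CPM, and the receptor gene Notch1 at 22.1 ± 1.11 against 77.2 ± 6.91 CPM. Rbpj, the DNA-binding partner of all Notch receptors, was called lower (-0.37 ± 0.12), a call lost without smooth muscle replicate 1, and its log2 fold change was 0.061 with scaling by library size alone.

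Hedgehog pathway genes were lower for 8 of the 16 tested and higher for 5, with a median of -0.34 (0.09 with scaling by library size alone). Hhip, a decoy that binds the ligand, was at 223, 200.0 and 191 CPM in progenitor and 12.2, 15 and 14.9 CPM in smooth muscle libraries. Gli1, both effector and target of the pathway, was at 31.5 ± 4.92 against 7.36 ± 0.593 CPM and the coreceptor gene Boc at 179.6 ± 7.24 against 62.1 ± 3.59 CPM. Ptch1, the main receptor, was at 29.8 ± 6.17 against 33.8 ± 1.37 CPM and not called (adjusted p = 0.284), although it was called higher by 0.61 with scaling by library size alone. On the smooth muscle side were ligands and Scube proteins, a family that helps release them, with Ihh at 0.699 ± 0.195 against 5.47 ± 1.11 CPM and Scube3 at 4.76 ± 0.585 against 112 ± 8.36 CPM. At these levels Ihh rests on few reads.

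TGF-beta and BMP genes split, 14 higher and 15 lower of 38, with a median of -0.17 that turned to 0.26 with scaling by library size alone. The shares were 36.8% and 39.5%, beside 34.4% and 28.1% of all genes tested. Among ligands, Tgfb2 was at 25.2 ± 2.32 against 148 ± 12.7 CPM and Tgfb3 at 335 ± 11.6 against 207 ± 11.6 CPM, so these paralogs went opposite ways. Inhba, the activin A subunit, was at 4.64 ± 0.411 against 73.5 ± 11.2 CPM. Gdf10, a BMP relative, was at 749, 757 and 837 CPM in progenitor and 58.9, 60.3 and 71.4 CPM in smooth muscle libraries, and Bmp3 and Bmp7 were at 98.2 ± 11.9 against 20.4 ± 4.44 and 27.7 ± 1.23 against 6.69 ± 0.435 CPM. The receptor gene Tgfbr2 was lower, at 326 ± 19.9 against 129.6 ± 10.3 CPM, and Bmpr1b higher, at 1.42 ± 0.561 against 18.9 ± 2.47 CPM. Chrdl1, a BMP antagonist, was lower, at 117 ± 9.69 against 21.4 ± 3.51 CPM.

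Wnt pathway genes were higher for 18 of the 36 tested and lower for 14, with a median of 0.39. Among all genes tested, 34.4% were higher and 28.1% lower. With scaling by library size alone, 9 Wnt pathway genes were lower and the median of the list was 0.82. Secreted antagonists lay at both extremes. Dkk2, an inhibitor of the Wnt coreceptors, was at 151, 140.0 and 171 CPM in progenitor and 5.14, 5.03 and 5.75 CPM in smooth muscle libraries. Sfrp4, a decoy receptor, was at 266 ± 12.8 against 23.5 ± 1.76 CPM. Frzb, another decoy of the same family, was at 5.15 ± 0.958 against 47.2 ± 2.8 CPM, and Sfrp5 at 0.233 ± 0.169 against 7.52 ± 1.94 CPM. Decoys of the Sfrp family thus marked either population. Among ligands, Wnt5a was at 233 ± 14.6 against 27.7 ± 5.13 CPM and Wnt16 at 0.173 ± 0.125 against 4.49 ± 0.333 CPM, and Ror1, a receptor of Wnt5a, was at 66.8 ± 4.57 against 153 ± 8.82 CPM while its paralog Ror2 was at 44.1 ± 4.33 against 23 ± 2.97 CPM.

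The PDGF system separated the populations by receptor and by ligand. Pdgfrb, the receptor of mural cells, was at 169, 144 and 150.4 CPM in progenitor and 564, 564 and 431 CPM in smooth muscle libraries, the opposite of Pdgfra above. Pdgfa, whose product binds the Pdgfra receptor, was at 2.26, 3.03 and 2.89 and 43.2, 39.8 and 52.8 CPM. Ligand Pdgfa and receptor Pdgfra were thus high in different populations. The growth factor list as a whole had 14 of 33 higher and 12 lower, with a median of 0.21. The shares were 42.4% and 36.4%, beside 34.4% and 28.1% of all genes tested. Fgf7, a growth factor that mesenchyme makes for epithelium, was at 117 ± 10.9 against 4.9 ± 0.578 CPM, Vegfd, a lymphatic growth factor, at 15.7 ± 1.36 against 47 ± 0.598 CPM, and Angpt2, a ligand of the Tek receptor, at 31.3 ± 1.47 against 83.3 ± 5.23 CPM. Vegfa was on the progenitor side, at 215 ± 9.76 against 89 ± 5.67 CPM.

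Of 14 insulin-like growth factor genes 5 were higher and 5 lower, 35.7% each beside 34.4% and 28.1% of all genes tested, and their median of 0.026 was close to the 0.05 of all genes. The ligand gene Igf1 was at 838, 741 and 1032 CPM in progenitor and 75.5, 106 and 94.1 CPM in smooth muscle libraries, whereas its receptor gene Igf1r was at 57.3 ± 1.3 against 134 ± 10.7 CPM. Ligand and receptor therefore differed in opposite directions. Binding proteins, which hold the ligand, parted as well, with Igfbp2 at 1.72, 3.85 and 5.85 CPM in progenitor and 253, 279.6 and 319.6 CPM in smooth muscle libraries, Igfbp5 at 359.6 ± 24.8 against 720.0 ± 78.3 CPM, and Igfbp4 at 1728 ± 107 against 527 ± 54.1 CPM.

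Retinoid genes were lower for 11 of the 15 tested and higher for 3, with a median of -0.75. The enzymes that make retinoic acid divided, with Aldh1a3 at 99.1, 76.9 and 85.3 CPM in progenitor and 3.3, 4.71 and 6.76 CPM in smooth muscle libraries and Aldh1a2 at 3.28, 5.71 and 11.2 and 89.2, 81.6 and 88.8 CPM. Each population thus had its own synthesising enzyme gene as the higher one. Aldh1a2 is also known from mesothelium, whose markers summed to 141 to 291 against 1593 to 2129 CPM, and their part in its level was not tested. Rbp4, a carrier of retinol, was on the progenitor side, at 96.8 ± 11.6 against 9.57 ± 2.85 CPM.

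Axon guidance genes were higher for 17 of the 35 tested and lower for 10, with a median of 0.50. Those shares were 48.6% and 28.6%, beside 34.4% and 28.1% of all genes tested. Plxna4, a semaphorin receptor, was at 17.5 ± 3.59 against 247 ± 13.4 CPM, and the semaphorin genes Sema3f and Sema3c were at 41.7 ± 1.32 against 189 ± 24.1 and 705 ± 40.5 against 132 ± 12.9 CPM. Ntf3, a neurotrophin, was higher, at 0.926 ± 0.271 against 27.4 ± 1.89 CPM.

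**Figure D5:**
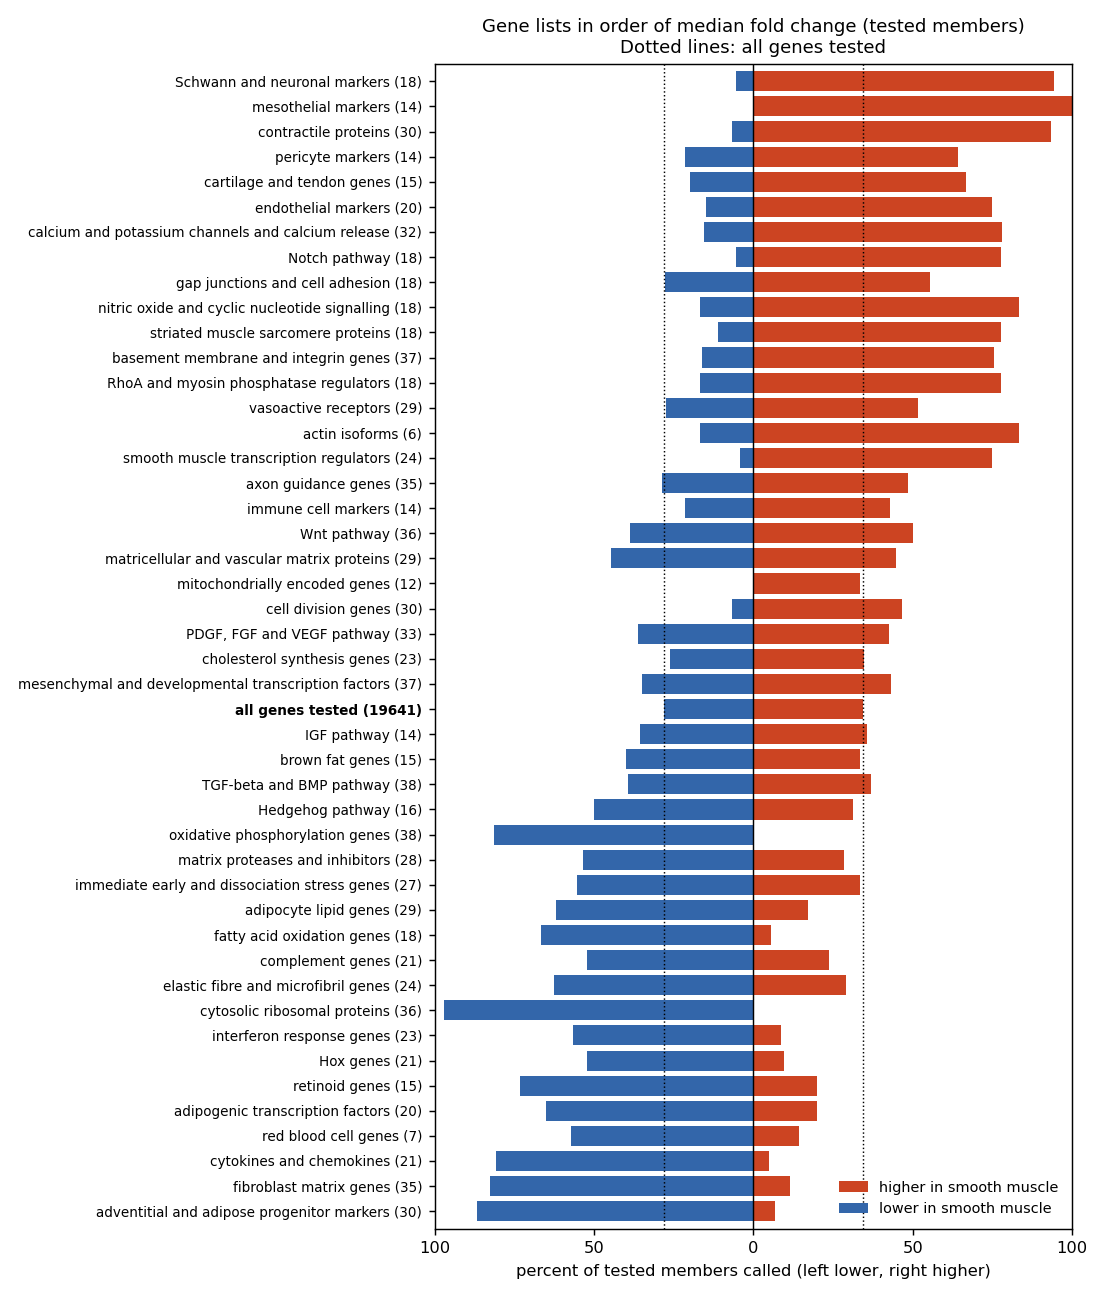
Percent of tested members called higher (red, right) or lower (blue, left) in smooth muscle libraries for each gene list, ordered by median fold change, with the number tested in parentheses and dotted lines at 34.4% and 28.1% for all genes tested. Schwann, neuronal, mesothelial and contractile lists head the order and progenitor markers, fibroblast matrix genes and cytokines end it.

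Cytokines and chemokines were lower for 17 of the 21 tested and higher for 1, with a median of -1.91. Il33, an alarm signal stored in stromal nuclei, was at 477, 442 and 566 CPM in progenitor and 31.1, 40.1 and 32.5 CPM in smooth muscle libraries, and Il6 at 498, 434 and 546 and 73.8, 89 and 84.2 CPM. No library overlapped for either gene. Ccl7, a monocyte attractant, was at 563 ± 99.1 against 64.4 ± 13.9 CPM. Complement genes were lower for 11 of the 21 tested and higher for 5, with the inhibitor gene Serping1 at 2325 ± 80.1 against 436 ± 54.1 CPM and the protease gene C1ra at 409.8 ± 29.4 against 78.2 ± 9.74 CPM. C3, the central component, went the other way, at 477 ± 164 against 1044 ± 119.7 CPM. Interferon response genes were lower for 13 of the 23 tested and higher for 2 (1 without smooth muscle replicate 1), among them Ifitm3, a block to viral entry, at 460.4 ± 25.1 against 198 ± 48.5 CPM, while Bst2, tetherin, was at 16.6 ± 3.79 against 40.4 ± 12.1 CPM.

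Immediate early genes, which respond within minutes to signals and to tissue dissociation, were high in both populations. They were lower in smooth muscle libraries for 15 of the 27 tested and higher in 9. Those shares were 55.6% and 33.3%, beside 28.1% and 34.4% of all genes tested. The median was -0.46, and -0.029 with scaling by library size alone. Egr1 was at 4846, 4983 and 5351 CPM in progenitor and 2509, 2617 and 2496 CPM in smooth muscle libraries, and Socs3, a brake on cytokine signalling, at 749 ± 16.9 against 268 ± 20.6 CPM. The orphan receptor gene Nr4a2 was on the other side, at 208 ± 27.2 against 612 ± 111 CPM. The part of handling during the sort in these levels was not tested.

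Adipogenic transcription factors were lower for 13 of the 20 tested and higher for 4, with a median of -0.85. Pparg, which drives fat cell differentiation, was at 58.5, 55.2 and 53 CPM in progenitor and 5.14, 3.27 and 3.02 CPM in smooth muscle libraries. Ebf2, a factor of brown fat precursors, was at 328, 284 and 334 and 23.5, 24.6 and 25.9 CPM, and Zfp521, a repressor of adipogenesis, at 109 ± 1.97 against 17.4 ± 3.58 CPM. A driver and a repressor of adipogenesis were thus both lower in smooth muscle libraries. Prdm16, a regulator of brown fat that is also expressed in the arterial wall, was higher, at 4.68, 4.54 and 3.03 CPM in progenitor and 54, 39.6 and 50.6 CPM in smooth muscle libraries. Gata2 was at 0.425 ± 0.228 against 32.5 ± 5.24 CPM, and as it is also a factor of sympathetic neurons the neuronal sums above stand beside it.

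Adipocyte lipid genes were lower for 18 of the 29 tested and higher for 5, with a median of -0.51. Lpl, lipoprotein lipase, was at 1552, 1461 and 1587 CPM in progenitor and 49.7, 46 and 55.9 CPM in smooth muscle libraries. Adipoq, the fat hormone adiponectin, was at 62.3, 75.4 and 43.1 and 2.35, 0.719 and 1.37 CPM, and Car3, a carbonic anhydrase abundant in fat, at 562 ± 120.0 against 13.9 ± 8.22 CPM. Progenitor libraries thus held transcripts of mature fat cell products. Slc2a4, the insulin-regulated glucose transporter of fat and muscle, was higher, at 7.38 ± 0.762 against 18.2 ± 2.31 CPM. Brown fat genes split, 5 higher (33.3%) and 6 lower (40.0%) of 15, beside 34.4% and 28.1% of all genes tested. Ucp1, the uncoupling protein, was at 6.48, 6.06 and 3.72 and 1.03, 1.24 and 1.58 CPM, low in both. The median of the brown fat genes, -0.11, was 0.32 with scaling by library size alone and 0.03 without progenitor replicate 1.

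Genes of energy supply and of the ribosome differed by small amounts, and some of their calls depended on the scaling. Nuclear oxidative phosphorylation genes were lower for 31 of the 38 tested with a median of -0.37, but with scaling by library size alone the median was 0.06 and 1 gene was lower, with background subtracted 10 were lower, and without smooth muscle replicate 1 it was 20. Sdhd, a subunit of complex II, had the smallest p, at 169 ± 12.1 against 96.4 ± 4.06 CPM. Cytosolic ribosomal protein genes were lower for 35 of the 36 tested with a median of -0.63, and in 11 with scaling by library size alone. Rplp0, of the ribosome stalk, was at 622 ± 41.8 against 358 ± 57.8 CPM. Of 12 genes of the mitochondrial genome, 4 were higher (33.3%) and none lower, beside 34.4% and 28.1% of all genes tested. With single libraries left out, 2 to 7 were higher. It was 2 without progenitor replicate 1, progenitor replicate 2 or smooth muscle replicate 3, and 7 without progenitor replicate 3. With background subtracted or the filter at 5 CPM 7 were higher, and with scaling by library size alone 11 were. Fatty acid oxidation genes were lower for 12 of the 18 tested and higher for 1 (2 without smooth muscle replicate 3), with a median of -0.54. With scaling by library size alone 7 were lower and 6 higher, with a median of -0.11. With background subtracted 3 were higher. Cpt2, a carnitine transferase, was at 47 ± 4.28 against 19 ± 2.46 CPM. Of 23 cholesterol synthesis genes, 8 were higher and 6 lower, shares of 34.8% and 26.1% near the 34.4% and 28.1% of all genes tested. Without any 1 of the progenitor libraries or without smooth muscle replicate 1, 3 to 5 were higher. With scaling by library size alone 15 were higher and 2 lower.

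Cell division genes were higher for 14 of the 30 tested and lower for 2, with a median of 0.26. Cenpf, a kinetochore protein, was at 19.4 ± 2.4 against 46.7 ± 1.33 CPM. Mki67, a marker of cycling cells, was at 51.1, 53.5 and 43.3 CPM in progenitor and 127, 104 and 112 CPM in smooth muscle libraries. Both were higher in each smooth muscle library than in any progenitor library. The 2 on the progenitor side were subunits of the replication helicase, Mcm4 at 99.8 ± 5.35 against 68.8 ± 6.24 CPM and Mcm6, with a log2 fold change of -0.25 ± 0.10. The call of Mcm6 was lost without progenitor replicate 1 or smooth muscle replicate 2, with RLE size factors, with all 12 libraries in 1 model, with the filter at 5 CPM and with even background subtracted, where it was at -0.079. With scaling by library size alone, 26 were higher, Mcm6 was at 0.18 and the call of Mcm4 was lost.

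Hox genes, which record position along the body, were lower for 11 of the 21 tested and higher for 2, with a median of -0.64. Hoxa5 was at 33.9, 31.9 and 36.5 CPM in progenitor and 14.6, 15.9 and 19 CPM in smooth muscle libraries, and Hoxc8, of a more posterior group, at 13.8 ± 1.53 against 5.58 ± 1.46 CPM. Hoxd8 was higher, at 0.206 ± 0.3 against 1.72 ± 0.246 CPM, so the paralogs Hoxc8 and Hoxd8 went opposite ways, the latter at levels near the limit of a count of 0. Other developmental factors split, 16 of 37 higher (43.2%) and 13 lower (35.1%), beside 34.4% and 28.1% of all genes tested. Meox2, a homeobox factor of mesoderm, was at 80.8, 86.8 and 78.8 CPM in progenitor and 7.56, 9.87 and 5.75 CPM in smooth muscle libraries, and Prrx2, of limb and craniofacial mesenchyme, at 33.5 ± 2.01 against 5.48 ± 1.06 CPM. On the other side Foxc2, a factor of vessel and heart outflow development, was at 14, 17 and 18.7 and 99.5, 89.3 and 121 CPM, and Tbx2 and Tbx20, T-box factors of the heart, were at 3.09 ± 0.977 against 40.9 ± 0.87 and 0.317 ± 0.167 against 11.9 ± 1.79 CPM. Foxc2 and Meox2 did not overlap between the groups.

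Cartilage and tendon genes were higher for 10 of the 15 tested and lower for 3, with a median of 2.40. The cartilage factors Sox5 and Sox6 were at 2.13 ± 0.207 against 18.2 ± 1.02 and 1.79 ± 0.589 against 34.4 ± 4.24 CPM, whereas Sox9, their upstream partner in cartilage, was lower, at 48.8, 58.8 and 64 CPM in progenitor and 13.6, 15.5 and 21.2 CPM in smooth muscle libraries. Sox9 thus parted from Sox5, Sox6 and Acan, its known targets in cartilage. Adhesion genes were higher for 10 of the 18 tested (55.6%) and lower for 5 (27.8%), beside 34.4% and 28.1% of all genes tested. Their median was 1.66. Ncam1, a neural and muscle adhesion protein, was at 17.9 ± 1.98 against 267 ± 3.27 CPM beside the neuronal sums above, and the cadherin gene Cdh6 at 2.03 ± 0.568 against 90.8 ± 13.2 CPM. Vcam1 and Icam1, which bind leukocytes, were on the progenitor side, at 207 ± 7.4 against 91.6 ± 4.15 and 428 ± 48.5 against 153 ± 24.4 CPM.

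Some of the 15 largest differences in each direction have not been described above. Susd5, a membrane protein with a link domain, was at 0.39, 0.482 and 0.482 CPM in progenitor and 214, 173 and 132 CPM in smooth muscle libraries, Tinagl1, a matrix protein of the vascular wall, at 1.17, 1.72 and 1.86 and 283, 278 and 288 CPM, and Clca3a2, a chloride channel regulator, at 0.312, 0.0688 and 2.96 and 130.3, 203 and 128 CPM. All 3 were far above the progenitor libraries in each smooth muscle library, although progenitor replicate 3 held most of the Clca3a2 of its group. On the progenitor side, Tmem100, a membrane protein downstream of BMP signalling, was at 239 ± 18.4 against 4.05 ± 0.666 CPM. The alcohol dehydrogenase gene Adh1 was at 114 ± 6.07 against 2.64 ± 0.32 CPM, and Hp, haptoglobin, which binds free haemoglobin, at 73.2 ± 18.7 against 1.77 ± 0.879 CPM. Penk, the precursor of enkephalin peptides, was at 338, 386 and 338 CPM in progenitor and 9.03, 6.8 and 14.9 CPM in smooth muscle libraries. Clec3b, tetranectin, was at 289 ± 33.6 against 9.05 ± 2.82 CPM, the dipeptidase gene Dpep1 at 165 ± 20.3 against 6.14 ± 1 CPM, and the adiponectin relative C1qtnf3 at 238 ± 30.4 against 9.93 ± 0.664 CPM. The other genes of that set, Ly6a, Ly6c1, Pi16, Scara5, Lpl, Car3, Dkk2 and Fgf7, are given above.

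On mm10, Myh11 lies on chromosome 16 from 14194535 to 14291372, Acta2 on chromosome 19 from 34241090 to 34255590, Eln on chromosome 5 from 134702593 to 134747323, Ly6a on chromosome 15 from 74994877 to 74998031, Pi16 on chromosome 17 from 29317680 to 29330593 and Col3a1 on chromosome 1 from 45311538 to 45349706. Another annotated gene overlaps exons of 317 among the 998 list genes tested, and with the strand of counting not given their counts are uncertain to that extent. Besides Tagln, the genes named here with such overlaps are Actg1, Adamts8, Adh1, Ccn2, Cd34, Clca3a2, Col3a1, Col4a1, Col4a2, Dpp4, Ebf2, Ednra, Efhd1, Eln, Fbn1, Fbn2, Gli1, Gucy1a1, Hhip, Icam1, Ina, Itga7, Itga8, Itpr1, Kcnk3, Lama2, Mcam, Mfap4, Myh6, Ncam1, Nid1, Nid2, Notch1, Notch3, Npr3, Pdgfa, Pdgfra, Penk, Pi16, Plxna4, Prdm16, Rhoa, Scube3, Sox5, Synm, Tgfb2, Tgfb3, Thbs3, Tnc, Ttn, Vcam1, Vcl and Wnt5a. Reads of Ly6a, Ly6c1, Hba-a1, Clca3a2, Myh6, Actg1 and the ribosomal protein genes can also be shared with near-identical copies or pseudogenes.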

How the data were processed

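Raw read counts per gene, deposited by the authors in 1 table, were used for 3 smooth muscle and 3 progenitor libraries. Reads were aligned with STAR 2.5.2a to mm10 and DESeq2 1.26.0 was used by the authors, per the submitters' processing notes. The sources used here do not name the counting program, its annotation or strand. The deposited tables of normalised and log2 values were not used. All rows named a gene, and GENCODE M21 gave positions for 36480 of 36512.

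Genes kept by edgeR's filterByExpr were fitted with edgeR 4.0.16 (R 4.3.3; TMM scaling, quasi-likelihood test, Benjamini-Hochberg adjustment over 19641 genes). A second test asked for more than 2-fold. SEs are the log2 fold change over the square root of F. Levels are CPM, counts scaled to library size after TMM, with scaling factors of 0.850 to 0.868 in progenitor and 1.15 to 1.17 in smooth muscle libraries. Tested genes held 99.2% to 99.8% of counts. A count of 0 allows up to 0.196 to 0.234 CPM, which covers counting error only. Replicates differed by more than sampling noise (chi-square per degree of freedom 6.07 to 14.7). Alternatives were size factors by relative log expression, library size alone, DESeq2 1.42.0, limma-voom (limma 3.58.1) with quality weights, no filter on low counts, at least 5 CPM in 3 libraries, all 12 libraries in 1 model, a replicate block, subtraction of an even background, and each library left out. The test was checked on simulated counts.

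The comparison, the members and the gene lists were chosen with earlier results of these data known. Named genes are the 15 largest differences each way (mean log2 CPM of at least 5, no overlap between groups), up to 4 members of each list with the smallest p in its main direction and up to 2 in the other, the actins, pairs of ligand and receptor or of paralogs, and a few markers. Agtr1a, Bmpr1b, Cd34, Col3a1, Col4a1, Col4a2, Dcn, Ednra, Fbn1, Fbn2, Ldb3, Lmod1, Myl9, Pdlim3, Ptch1, Srf, Synm, Tgfbr2, Vcl and Vegfa were named after their values were seen. Results for a few genes are not reported here.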

Additional observations from a re-analysis of the deposited data

How the results depend on the processing

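Beside 12279 genes called with all libraries, 11378 to 13558 were called with single libraries left out, 6498 to 7663 of them higher and 4880 to 5895 lower, and 10829 to 11568 of the 12279 were called again. More than 2-fold calls then ran from 4697 to 5891, with 3802 to 4851 higher and 895 to 1116 lower. The filter at 5 CPM in 3 libraries, which tests fewer genes, left 7494 calls (3959 higher, 3535 lower) and 2208 past 2-fold (1592 higher, 616 lower). Without a filter on low counts there were 19636 calls (13087 higher), 9131 of them past 2-fold (7932 higher). Scaling by library size alone gave 9813 higher and 2302 lower calls, 577 of the latter past 2-fold, and background subtraction 2546 past 2-fold higher. The cause of these shifts was not tested.

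No pairing of replicate numbers was found. Deviations of same-numbered libraries correlated at -0.0362, -0.0663 and -0.0969, and no library correlated best with its own number. With the replicate block 11467 genes were called (6387 higher, 5080 lower), and of the named genes Mcm6 lost its call.

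Medians of 9 lists changed sign. With library size alone they were 0.092 for Hedgehog, 0.26 for TGF-beta and BMP, 0.32 for brown fat and 0.057 for oxidative phosphorylation genes. With the filter at 5 CPM they were -0.20 for matricellular, 0.011 for TGF-beta and BMP, 1.37 for brown fat and -0.11 for mesenchymal factor genes, and with background subtracted -0.079 for matricellular, 0.0053 for TGF-beta and BMP and -0.053 for mesenchymal factor genes. DESeq2 gave -0.015 for IGF and 0.13 for red blood cell genes, no filter gave -0.077 for IGF, -0.0053 for cholesterol and 0.065 for red blood cell genes, 12 libraries in 1 model gave 0.15 for red blood cell genes, and limma-voom -0.014 for mesenchymal factor genes. With single libraries left out, medians ran from -0.061 to 0.029 for IGF, -0.45 to 0.028 for brown fat and -0.16 to 0.27 for mesenchymal factor genes.

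Of 221 named genes called, 8 were not called the same way with library size alone, and Rhoa (0.015), Rbpj (0.061) and Mcm6 (0.18) changed sign there, as did Dpp4 (0.16), which was not called. The uncalled Srf ran from -0.040 to 0.25 with single libraries left out. Counts limit genes such as Myocd, Acan and Kcnmb1 in progenitor libraries, where their levels are near that of a count of 0.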
